A study of Homo sapiens with 9 samples.

Results

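The genes of 10 transcription elongation factors and pause regulators, SUPT5H, SUPT6H, SUPT16H, SSRP1, TCEA1, CDK9, CCNT1, HEXIM1, CTR9 and NELFCD, were examined among 19821 protein-coding genes, to see whether RNA polymerase II (RNAPII) over the elongation machinery's own genes differed when RECQL5 was depleted or overproduced. They were chosen by name and not by any measured value, but with earlier results of these data known. A peak was assigned to a gene when it overlapped by at least 1 bp the span of that gene in GENCODE, lifted to GRCh37 and widened by 500 bp on either side. In this way 12 of 5287 peaks were found on the 10 genes in the control shRNA list, 33 of 23698 for RECQL5 shRNA5, 36 of 32124 for shRNA7, and 84 of 47060 and 77 of 33900 in the absence and presence of doxycycline.

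RNAPII occupancy was profiled by chromatin immunoprecipitation and sequencing (ChIP-seq) in HEK293, an established line from human embryonic kidney, to learn how the DNA helicase RECQL5 affects the polymerase. In 3 groups, cells were infected with lentivirus driving a control shRNA, shRNA5 or shRNA7, the latter pair directed against RECQL5. In the other 2 groups, HEK293 T-REx cells that carried a plasmid with the full RECQL5 coding sequence under a doxycycline-inducible promoter were grown with 0.0 or 1.0 ng/ml doxycycline, so that both groups carry the plasmid. Each group was 1 RNAPII library, peaks were called against non-specific IgG libraries, and whether the transfected cells were a single clone is not given in the sources used here. According to the study's methods, similar numbers of reads were obtained for the samples compared within an arm. The methods also describe longer peak lists for the hairpin arm than those used here, with the largest shortfall in proportion for the control, so a peak called absent or gained here is so only relative to the list used. There were no replicates and no test between conditions, and every difference below is between single libraries. In a bulk culture, polymerase present in more of the cells and more polymerase per cell cannot be told apart.

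Each peak carries a tag count (sequenced fragments inside it), a summit (its highest point) and a fold enrichment (its height over local background). Differences between conditions were taken only within an arm, because the tag counts of the weakest listed peaks differed between arms. The weakest peaks held 26 to 35 tags in the hairpin lists but 9 and 11 in the doxycycline arm, and median peak lengths were 1834 to 2024 bp and 622 to 689 bp, respectively. A gene without a listed peak may be below a threshold or missing from the list used, and is not shown to be free of RNAPII. Of 5 genes often transcribed in HEK293 cells, 0 to 4 had a peak depending on the list, and of 5 genes of other lineages none had a peak in any list. RECQL5 itself had no peak in the control and shRNA5 lists, 2 upon shRNA7 and 8 in each doxycycline list, where its sequence is also on the plasmid, so these values give no check of the knockdown or the induction.

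Soon after initiation RNAPII pauses downstream of the promoter, held by the negative elongation factor (NELF) and by DSIF. The kinase P-TEFb releases it, and P-TEFb is itself kept inactive by HEXIM1 bound to a small nuclear RNA. Beyond the pause, polymerase is accompanied by the PAF1 complex, by the histone chaperones SUPT6H and FACT, and by TFIIS, which helps stalled polymerase to resume by cleavage of the transcript.

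The 150 bases directly upstream of the outermost coding transcript start are shown for 6 of the genes, 3 with a peak there in all 5 lists and 3 where the lists differ. HEXIM1 (chr17:43225692-43225841, plus strand), SUPT16H (chr14:21852179-21852328, minus strand) and CCNT1 (chr12:49110782-49110931, minus strand) lay wholly inside a peak in all 5 lists. SSRP1 (chr11:57103367-57103516, minus strand) and CTR9 (chr11:10772643-10772792, plus strand) lay inside a peak in every list except the control shRNA list. NELFCD (chr20:57556113-57556262, plus strand) lay inside a peak only upon shRNA7 and without doxycycline. Sequences are from GRCh37, read 5′ to 3′ towards the gene, and capitals mark matches on either strand to 3 promoter motifs: the TATA box (TATAAA), the CCAAT box, and the GC box (GGGCGG).
HEXIM1: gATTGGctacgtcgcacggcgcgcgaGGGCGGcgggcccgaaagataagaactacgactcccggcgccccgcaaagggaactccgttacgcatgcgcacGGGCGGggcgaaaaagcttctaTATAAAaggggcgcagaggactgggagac
SUPT16H: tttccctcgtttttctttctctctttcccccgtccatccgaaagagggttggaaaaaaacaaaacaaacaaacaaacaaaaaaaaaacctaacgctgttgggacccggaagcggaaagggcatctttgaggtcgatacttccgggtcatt
CCNT1: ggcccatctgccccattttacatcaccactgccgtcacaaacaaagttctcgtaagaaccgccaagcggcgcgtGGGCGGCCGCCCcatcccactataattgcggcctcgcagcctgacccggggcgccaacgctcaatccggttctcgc
SSRP1: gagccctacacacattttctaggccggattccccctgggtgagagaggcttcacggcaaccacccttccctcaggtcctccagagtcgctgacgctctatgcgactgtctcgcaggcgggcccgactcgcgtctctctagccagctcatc
CTR9: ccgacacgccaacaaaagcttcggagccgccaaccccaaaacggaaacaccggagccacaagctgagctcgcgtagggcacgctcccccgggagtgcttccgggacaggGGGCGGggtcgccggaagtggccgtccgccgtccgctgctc
NELFCD: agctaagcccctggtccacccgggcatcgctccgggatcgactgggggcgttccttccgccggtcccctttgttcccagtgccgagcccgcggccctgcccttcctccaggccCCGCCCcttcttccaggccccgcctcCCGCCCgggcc
GGGCGG was found in 8 of the 10 windows, against 45.1% of 19799 protein-coding genes, and no match was found upstream of SUPT16H or SSRP1. CCAAT was present in 1 window (HEXIM1), against 25.4% of genes. TATAAA was present in 2, against 6.62% of genes: in HEXIM1 it lay 29 to 24 bases before the start, and in CDK9 it lay on the opposite strand, 140 to 135 bases before. The G+C share was 63.3% for HEXIM1, 44.0% for SUPT16H, 62.7% for CCNT1, 62.0% for SSRP1, 69.3% for CTR9 and 74.7% for NELFCD, and the median over all genes was 62.7%. No matches of different motifs overlapped. The motif letters did not separate the 3 genes with a peak in all lists from the other 3 shown: SUPT16H held none of them and NELFCD held 2 GC boxes.

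Where RNAPII lay along the 10 genes is shown first as a map. A peak that came within 500 bp of the start of the longest protein-coding transcript is called a peak at the start, and any other peak that reached that transcript beyond 500 bp is called a gene-body peak.

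**Figure D1:**
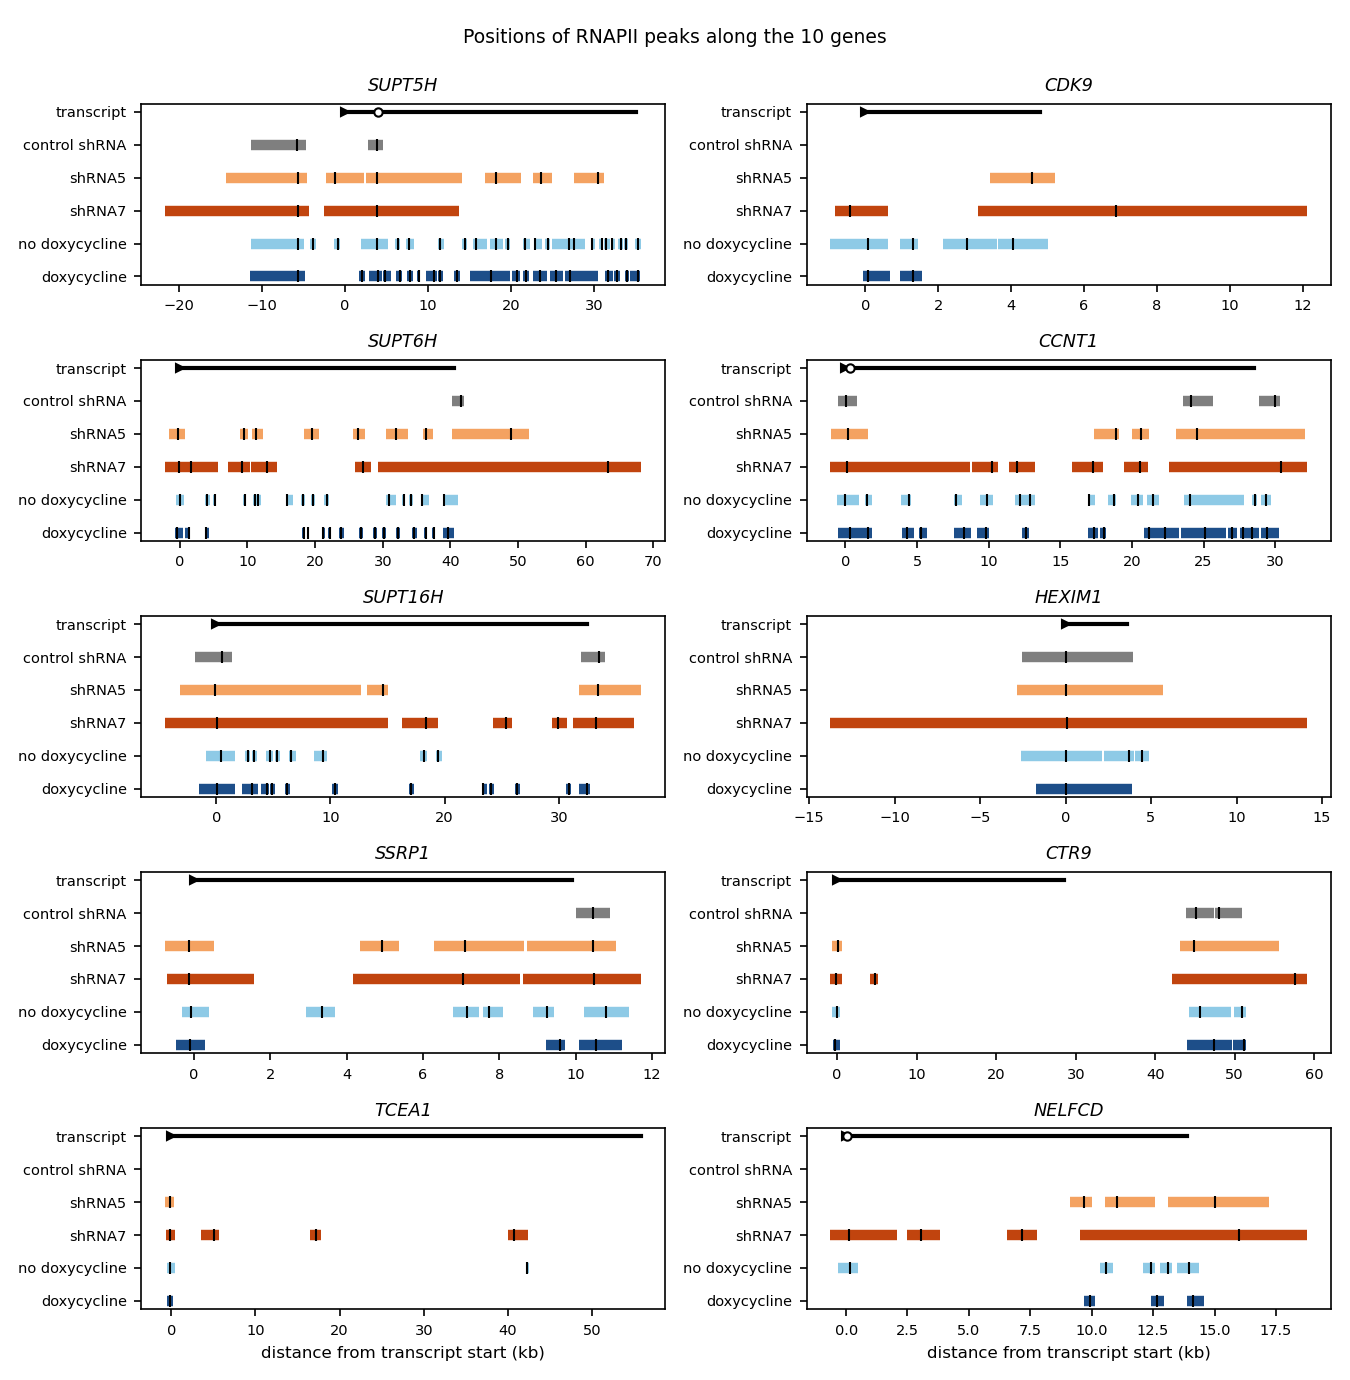
Peaks in the 5 lists (bars, with a tick at the summit) by distance in kb from the start of the longest protein-coding transcript of each gene (black line, arrowhead at the start, open circle at the MANE Select start where it differs). CDK9, TCEA1 and NELFCD have no bar in the control shRNA list, and SSRP1 has a bar just past its end in all 5 lists.

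SUPT5H (chr19:39926796-39967310, plus strand) encodes the large subunit of DSIF. Its longest annotated transcript starts 3939 bp upstream of the MANE Select transcript, the reference transcript agreed by the annotation projects, and the RNAPII summit lay close to the latter, from -141 to 13 bp, in all 5 lists. The peak there held 174 tags with the control hairpin, 806 (shRNA5) and 1849 (shRNA7), and 196 and 161 tags in the absence and presence of doxycycline. Both knockdown values were above the control, by 4.63-fold (95% interval 3.93 to 5.49) and 10.6-fold (interval 9.09 to 12.5), while the doxycycline values differed by less than counting error (0.821-fold, interval 0.663 to 1.02). Intervals here and below are exact binomial intervals of the 2 tag counts and cover counting error only. The larger counts came with longer peaks, of 1869 bp with the control, 11622 bp upon shRNA5 and 16316 bp upon shRNA7. Per kb of peak, tags were 0.745 and 1.22 times the control value. In the doxycycline arm the peak was 3303 bp long without the drug and 1530 bp with it. Per kb that ratio was 1.77, in the opposite direction to the tag counts. At the start of the longest transcript a peak was listed only for the knockdown hairpins: upon shRNA5 a separate peak of 329 tags and 4544 bp, and upon shRNA7 the 16316 bp peak itself. A separate peak at the start of RPS16, a ribosomal protein gene next to it, lay within the widened span in each list, with 706 (control), 1513 (shRNA5), 2852 (shRNA7), 704 (no doxycycline) and 798 (doxycycline) tags.

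The body of SUPT5H differed between the knockdown hairpins. It had 1 gene-body peak with the control (the peak at the MANE Select start), 4 upon shRNA5 and 0 upon shRNA7, because the 16316 bp peak of shRNA7 reached the start and counted there. With the MANE Select start the gene-body peaks numbered 0, 3 and 0. Peaks covered 5.34% of the transcript with the control, 69.1% upon shRNA5 and 39.2% upon shRNA7. The 3 most downstream shRNA5 peaks, with 194, 104 and 183 tags and fold enrichments of 4.36 to 6.28, had no counterpart upon shRNA7. In the doxycycline arm SUPT5H carried the most gene-body peaks of the 10 genes, 20 without and 19 with the drug, covering 57.7% and 68.9% of the transcript.

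NELFCD (chr20:57556263-57570188, plus strand) encodes a subunit of NELF. No peak was listed on it with the control hairpin. At the start it had a peak of 157 tags upon shRNA7 and of 22 tags without doxycycline, and none upon shRNA5 or with doxycycline. NELFCD was thus the only gene of the 10 whose peak at the start was listed without doxycycline and not with it. Gene-body peaks numbered 3 for each knockdown hairpin, and 4 and 3 in the absence and presence of doxycycline. Their first summit lay 3033 bp from the start upon shRNA7, and 9687 bp or more from it in the other lists. That shRNA7 peak held 47 tags with a false discovery rate (FDR) of 9.95%, and the next one had an FDR of 18.3%. At an FDR of at most 5% the first shRNA7 summit lay 16001 bp from the start, farther than the first in the other lists. The longest of them, 587 tags upon shRNA7 with its summit 2078 bp past the end, also touched CTSZ, which overlaps NELFCD in the annotation.

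CDK9 (chr9:130547958-130553071, plus strand) is the kinase subunit of P-TEFb. It had no peak with the control hairpin and none at the start upon shRNA5, where its single peak of 88 tags had its summit 184 bp before the transcript end. Upon shRNA7 a peak at the start held 70 tags, and a second peak of 1030 tags ran past the end into FPGS. Tags at the start were 55 without doxycycline and 32 with it, a ratio of 0.582 (interval 0.364 to 0.916). The peak was also shorter with the drug, 750 bp against 1586 bp, and per kb the ratio was 1.23, in the opposite direction. Gene-body peaks numbered 3 without the drug and 1 with it, and the covered share of the transcript was 77.5% and 27.1%.

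CCNT1 (chr12:49082241-49110781, minus strand) encodes cyclin T1, the partner of CDK9. Its start carried a peak in each of the 5 lists. The tag count was 64 with the control hairpin, 191 with shRNA5 and 540 with shRNA7, and 124 and 125 in the absence and presence of doxycycline. The knockdown values were 2.98-fold (interval 2.24 to 4.03) and 8.44-fold (interval 6.50 to 11.1) the control, whereas the doxycycline pair was nearly equal (1.01-fold, interval 0.780 to 1.30). Peak length was 1355, 2627 and 9736 bp in the hairpin lists, and tags per kb were 1.54 and 1.17 times the control. CCNT1 had 1, 3 and 5 gene-body peaks in the hairpin lists, and 12 and 14 in the doxycycline arm. It was 1 of 3 genes here with more gene-body peaks in the presence of doxycycline.

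HEXIM1 (chr17:43225842-43229466, plus strand) is a gene of 1 exon and encodes the inhibitor of P-TEFb. It held the most tags at the start of the 10 genes in each of the 5 lists: 685 with the control, 1091 with shRNA5 and 3817 with shRNA7, and 571 and 635 in the absence and presence of doxycycline. These placed it at percentiles 95.9 to 99.0 of the genes with a peak at the start in the same list. Summits were confined to a window from 23 to 66 bp after the start. Relative to the control, the HEXIM1 tag count was 1.59-fold higher for shRNA5 (interval 1.45 to 1.76), which is below the median of all genes in that comparison (2.01-fold), and 5.57-fold higher upon shRNA7 (interval 5.14 to 6.05). The shRNA7 peak was 27861 bp long and covered the starts of HEXIM2 and ACBD4, so its tags are not of HEXIM1 alone. Peaks covered the whole HEXIM1 transcript in 4 of the 5 lists and 97.2% of it without doxycycline.

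CTR9 (chr11:10772793-10823172, plus strand) is a subunit of the PAF1 complex. At its start no peak was listed with the control, and peaks of 74 and 96 tags were listed upon shRNA5 and shRNA7, and of 37 and 49 tags without and with doxycycline (1.32-fold, interval 0.847 to 2.09). Its body was nearly empty of peaks: the only gene-body peak in any list was of 34 tags, upon shRNA7, with an FDR of 17.2%. The remaining peaks on the annotated span had their summits at least 16428 bp past the end of the longest coding transcript, around EIF4G2, a translation initiation factor gene on the same stretch.

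SUPT6H (chr17:26989216-27029697, plus strand) encodes a histone chaperone that travels with RNAPII. With the control hairpin its only peak, of 80 tags, had its summit 1168 bp past the transcript end. At the start, 146 and 215 tags were listed for shRNA5 and shRNA7. The doxycycline pair had 65 and 75 tags (1.15-fold with the drug, interval 0.817 to 1.63). SDF2 starts 299 bp away and its start was covered by the same peaks, so that these tags belong to both genes. It had 1 gene-body peak with the control, 7 with shRNA5 and 5 with shRNA7, and 14 and 15 in the doxycycline arm. The most downstream peak upon shRNA7 was 38947 bp long with 5450 tags and its summit 22748 bp past the end, and covered the starts of 5 other genes, RPL23A among them.

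SUPT16H (chr14:21819635-21852178, minus strand) and SSRP1 (chr11:57093460-57103366, minus strand) encode the partners of FACT, which opens nucleosomes for the polymerase. At the start of SUPT16H, 235 tags were counted with the control, 990 with shRNA5 and 1368 with shRNA7, and 159 and 220 in the absence and presence of doxycycline. The knockdown values were 4.21-fold (interval 3.65 to 4.88) and 5.82-fold (interval 5.07 to 6.71) over the control, with peak lengths of 3244, 15930 and 19501 bp and tags per kb of 0.858 and 0.968 times the control. SUPT16H was the only gene of the 10 whose start-peak tags were higher with doxycycline beyond counting error (1.38-fold, interval 1.12 to 1.71, and 1.10-fold per kb of peak). SSRP1 had no peak at the start with the control, and 76 and 142 tags for shRNA5 and shRNA7. In the doxycycline arm it had 35 and 31 tags (0.886-fold with the drug, interval 0.528 to 1.48). Thus a control peak was listed at the start of SUPT16H and not of SSRP1, although their products act as a pair.

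TCEA1 (chr8:54879112-54935008, minus strand) encodes TFIIS. It is the longest of the 10 genes, and little of it was covered by peaks: 0.639% of the transcript for shRNA5 and 11.0% for shRNA7, and 1.54% and 0.327% in the doxycycline arm. It had no control peak. Tags at the start were 49 and 51 for the knockdown hairpins, and 41 and 20 in the absence and presence of doxycycline, the last pair giving a ratio of 0.488 (interval 0.271 to 0.852) and of 0.668 per kb of peak. Only shRNA7 added more than 1 gene-body peak on it, 3 with 55 to 93 tags.

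**Figure D2:**
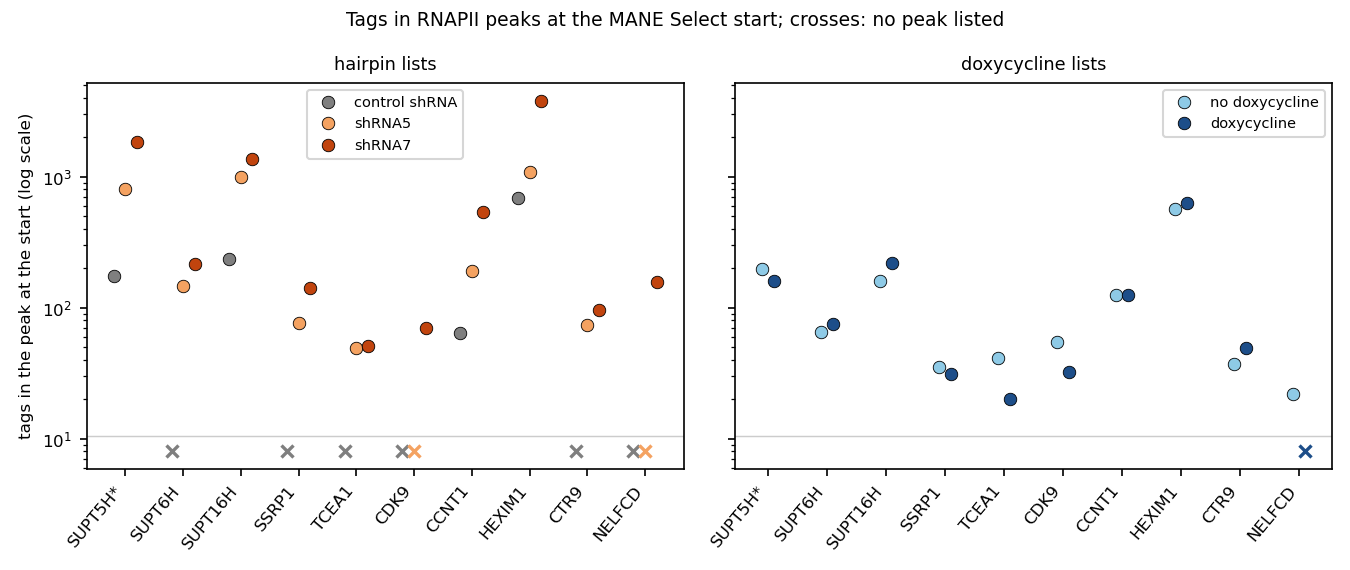
Tags in the peak at the MANE Select start (log scale) for each gene in the hairpin lists (left) and the doxycycline lists (right), 1 point per library and a cross where no peak was listed. The asterisk marks SUPT5H, the only gene whose values differ from those at the longest transcript's start. HEXIM1 is highest in all 5 lists, and 6 control values are crosses.

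Across the 10 genes, a peak at the start was listed for 3 with the control hairpin (30%, exact binomial interval 6.67 to 65.2%), 8 upon shRNA5 and 10 upon shRNA7. Of all protein-coding genes 15.4%, 40.7% and 48.7% had one. With the MANE Select start these counts were 4, 8 and 10, against 16.0%, 41.9% and 50.1%. A peak at the start was gained by 5 of the 10 genes upon shRNA5, against 25.4% of all genes, and by 7 upon shRNA7, against 34.3%. Because genes without RNAPII lower these shares, the 9 genes with a peak at the start without doxycycline were also compared with the 10357 genes of which this was true: 3 of the 9 had a control peak against 29.3%, 7 an shRNA5 peak against 74.5% and 9 an shRNA7 peak against 85.2%. On this footing the counts were near those of other genes. When both knockdown lists were shortened to the strongest peaks, as many as the control list holds, the numbers were 3, 4 and 2 of the 10 genes.

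In the doxycycline arm a peak at the start was listed for 9 genes without and 8 with the drug, against 52.3% and 44.0% of all genes. No gene gained a peak (1.21% of all genes) and NELFCD lost its peak (9.45% of all genes).

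**Figure D3:**
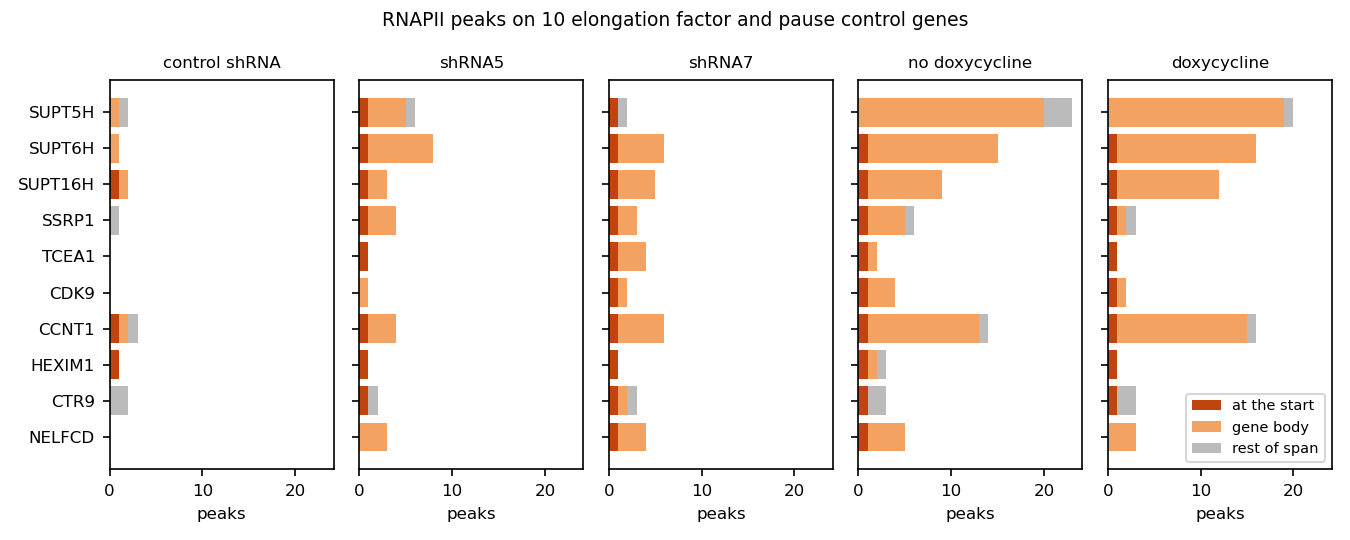
Number of peaks on each gene in the 5 lists, split into peaks at the start, gene-body peaks and peaks elsewhere in the widened span. The control shRNA list has at most 3 peaks on a gene, and SUPT5H has 23 and 20 in the doxycycline arm.

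Gene-body peaks on the 10 genes numbered 4 with the control (exact Poisson interval 1.09 to 10.2). There were 23 with shRNA5 (interval 14.6 to 34.5) and 24 with shRNA7 (interval 15.4 to 35.7). With the knockdown lists shortened as above these numbers were 5 and 7. At a fold enrichment of at least 10 they were 4 and 6 beside 3 with the control. That cut lies above the list medians for shRNA5 and shRNA7 (7.23 and 7.51) and below that of the control (12.9). At a significance score (negative log10 of the p-value times 10) of at least 100 they were 12 and 14 beside 2. The size of the excess thus depends on the filter. In the full lists they were more numerous than in the control on 7 genes upon shRNA5, against 28.7% of all genes, and on 8 genes upon shRNA7, against 37.5%. SUPT5H upon shRNA7 was the only gene with fewer, against 3.45% of all genes. Without doxycycline there were 67 (interval 51.9 to 85.1) and with it 64 (interval 49.3 to 81.7), which overlap. Shortening the first list to the length of the second gave 53 and 64. A significance score of at least 100 gave 23 and 23. A fold enrichment of at least 10 gave 64 and 25, but that cut lies between the list medians (13.0 without and 9.54 with the drug). The near equality thus depends on the filter. Of the 10 genes, 6 had fewer with the drug, against 28.8% of all genes, and 3 had more (SUPT6H, SUPT16H and CCNT1), against 9.23%. Genes without RNAPII lower these shares of all genes, and those given above for the knockdown lists. Without doxycycline, a gene-body peak was listed on 9 of the 10 genes and on 42.1% of all genes. Counting all peaks on the widened spans, and among genes with a peak in either list, 8 of the 10 had more upon shRNA5 (82.8% of all such genes) and 8 upon shRNA7 (85.5%), and 6 had fewer with doxycycline (55.3%).

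How much of each transcript lay inside peaks was measured because peaks differed in length. Over the 10 transcripts together the covered share was 4.19% with the control, 30.3% upon shRNA5 and 45.3% upon shRNA7, and 25.3% without and 25.0% with doxycycline. With the knockdown lists shortened to the length of the control list the shares were 11.3% and 18.8%, and a fold enrichment of at least 10 gave 24.7% without and 15.7% with doxycycline. All protein-coding transcripts together gave 0.857%, 3.83% and 6.42%, and 2.60% and 2.20%. Genes without RNAPII lower these shares too, and no share among genes with RNAPII alone was taken. The 35 other elongation genes described below together gave 1.21%, 8.5% and 16.2% in the hairpin lists, and 6.01% and 6.05% without and with doxycycline. The covered share was larger than in the control for 9 of the 10 genes upon each knockdown hairpin, against 96.4% and 96.3% of the genes covered in either list, HEXIM1 being fully covered throughout. With doxycycline it was larger for 5 of the 10 genes (SUPT5H, SUPT16H, CCNT1, HEXIM1 and CTR9), against 26.0% of all such genes, and smaller for the other 5 (SUPT6H, SSRP1, TCEA1, CDK9 and NELFCD), against 72.6%. No test was made of these shares.

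**Figure D4:**
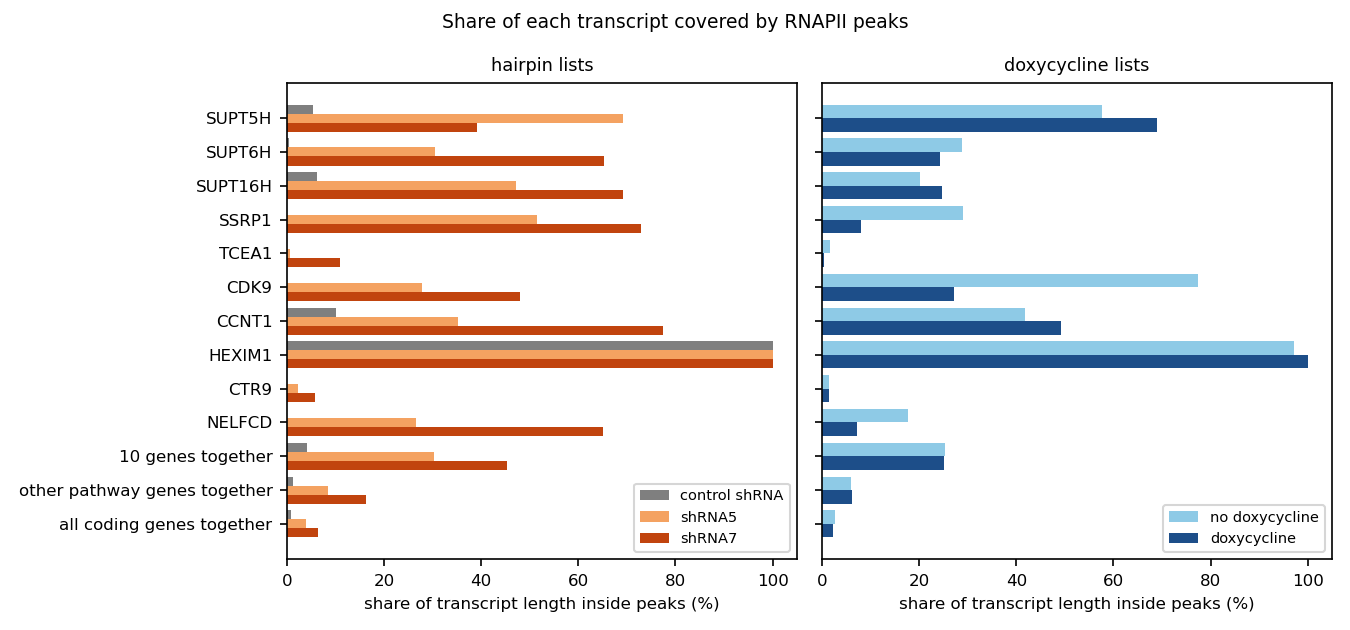
Share of the longest protein-coding transcript inside RNAPII peaks, in percent, for each gene, for the 10 genes together, for 35 other elongation genes and for all protein-coding genes, with 1 bar per list. Shares in both knockdown lists exceed the control except for HEXIM1, while the doxycycline lists differ in either direction.

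Peaks past the 3′ end were also counted. In the 2 kb past the transcript end, 6 of the 10 genes had a peak with the control, against 9.31% of all genes, and 7 had one in each other list, against 27.3% (shRNA5), 36.9% (shRNA7), 21.7% (no doxycycline) and 16.4% (doxycycline). As for peaks at the start, genes without RNAPII lower these shares, and no share among genes with RNAPII alone was taken for the end window. This window was chosen after the peak positions were seen, and a peak there need not have its summit there. Counting summits only, the genes were 5 with the control, 3 for each knockdown hairpin, 6 without doxycycline and 5 with it, so the knockdown lists fell below the control. The control count of 6, taken by overlap, includes HEXIM1, whose peak at the start runs over the whole gene. It also includes CDK9, where the peak lies past the end and outside the widened span. At SSRP1 a summit lay 545 to 884 bp past the end in all 5 lists. Its peak held 44 tags (control), 145 (shRNA5), 204 (shRNA7), 48 (no doxycycline) and 49 (doxycycline). At SUPT16H the corresponding peak had 92, 365 and 504 tags in the hairpin lists, 970, 915 and 734 bp past the end. TNKS1BP1 starts near the end of SSRP1, and its start was covered by the SSRP1 end peak in every list except the control list. The control summit, 561 bp past the end, lay between those of shRNA5 and shRNA7 (545 and 581 bp). These peaks can therefore not be assigned to the end of SSRP1 alone. With peaks at other coding promoters left out, 5 genes had a peak in the window with the control and 5 with shRNA5. There were 4 with shRNA7 and 6 in each doxycycline list.

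**Figure D5:**
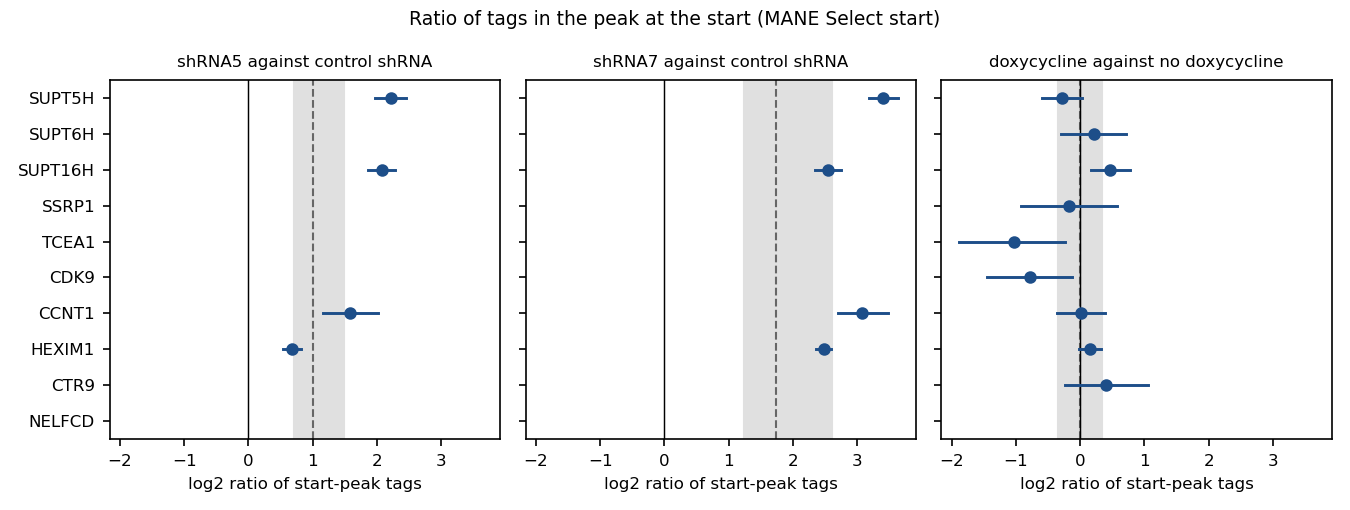
Log2 ratio of tags in the peak at the MANE Select start for the genes with a peak in both lists (points, with 95% counting intervals), beside the median (dashed) and quartiles (grey band) of all protein-coding genes. In the knockdown panels all 4 points are above 0, and in the doxycycline panel they lie on both sides of it.

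Tags at the start could be compared for SUPT16H, CCNT1 and HEXIM1 in the knockdown comparisons. On the log2 scale their median ratio was 1.58 upon shRNA5, from 0.67 to 2.08, beside 1.01 over 3032 genes, and 2.54 upon shRNA7, from 2.48 to 3.08, beside 1.74 over 2844 genes. At least 2-fold more tags were counted on 2 of the 3 upon shRNA5 (51.0% of all genes) and on 3 of 3 upon shRNA7 (87.6%). Per kb of peak the medians were 0.28 and 0.23 on the log2 scale, beside 0.42 and 0.65 for all genes, so that most of the difference in tags went with longer peaks. For the 8 genes with a peak at the start in both doxycycline lists the median log2 ratio was 0.08, from -1.04 to 0.47, beside 0.00 over 8484 genes. TCEA1 was at least 2-fold lower (5.82% of all genes) and none was at least 2-fold higher (3.95%). The fold enrichment of the peak at the start was lower with doxycycline on all 8, for instance 231 and 115.5 at HEXIM1 and 49.0 and 37.1 at SUPT16H, as it was for 98.0% of all genes, and the list medians were 13.0 and 9.54.

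Of 35 other protein-coding genes of the elongation pathway, among them the other NELF, PAF1 and super elongation complex subunits, 11 had a peak at the start with the control, 27 with shRNA5, 28 with shRNA7, and 31 and 28 in the absence and presence of doxycycline. Of all genes, 15.4%, 40.7%, 48.7%, 52.3% and 44.0% had a peak at the start in these lists. Gains numbered 16 upon shRNA5 (45.7%, against 25.4% of all genes) and 19 upon shRNA7 (54.3%, against 34.3%). Upon shRNA7 2 peaks were also lost (5.71%, against 1.07%). Doxycycline gave 0 gains (1.21% of all genes) and 3 losses (8.57%, against 9.45%). Genes without RNAPII lower these shares of all genes. Of those with a peak in both lists, 6 of 11 had at least 2-fold more tags upon shRNA5 (51.0% of all such genes). Upon shRNA7 9 of 9 had (87.6% of all such genes). The median log2 ratios were 1.16 and 1.26, beside 1.01 and 1.74 over all such genes. The highest ratio was at HEXIM2, a relative of HEXIM1, with 160 tags in the control, 458 upon shRNA5 and 3817 upon shRNA7, the last being the peak that also covers HEXIM1. The lowest was at CCNT2, which encodes another cyclin partner of CDK9, with 151, 186 and 322 tags. With doxycycline the median log2 ratio over 28 genes was 0.06, with MLLT3 highest (12 and 28 tags without and with the drug) and NELFB lowest (28 and 18 tags).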

How the data were processed

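The study profiled RNAPII by ChIP-seq in 9 libraries, 5 with an RNAPII antibody and 4 with non-specific IgG. According to the submitters' processing notes and the study's methods, the authors aligned reads with Bowtie 0.12.7 after CASAVA 1.8 and called peaks on hg19 with MACS 1.4.2, separately for each RNAPII library against its IgG library; both doxycycline lists shared 1 IgG library. Per peak, the deposited lists give the count of tags, not normalised by the authors, the fold enrichment as a ratio over local background, the FDR in percent, and a significance score, which the authors' caller derived as the negative log10 of the p-value times 10. The lists hold no library totals. The study's methods describe read numbers as similar within an arm and give them only as an approximate range for each arm, so tags were not scaled to depth. Tags inside peaks were 842310 to 6698771 in the hairpin lists and 1449163 and 1539844 in the doxycycline arm.

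Peaks were assigned with Python 3.11.15, numpy 2.4.6, pandas 2.3.3 and scipy 1.17.1 to GENCODE 44 genes lifted to GRCh37, each represented by its longest protein-coding transcript, with a minimum overlap of 1 bp. The code was tested on simulated peaks. Calls across genes were a peak gained or lost, or at least 2-fold different tags. With 1 library per group no test was made. Intervals are 95%, exact and for counting error only. All 10 genes are named, and of the other pathway genes those with the highest and lowest tag ratio in a comparison; neighbours are named where a peak of the 10 genes reaches them. Genes, lists and comparisons were chosen with earlier results of these data known. Alternatives were stricter peaks, merged peaks, lists of equal length, other spans, windows and starts, tags per kb, ratios minus the median of all genes, and peaks at other promoters left out. The IgG libraries were not analysed here on their own.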

Additional observations from a re-analysis of the deposited data

Results flagged for a closer look

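The number of gene-body peaks on SUPT5H stood on opposite sides of the control in the 2 knockdown lists: 1 with the control hairpin, 4 upon shRNA5 and 0 upon shRNA7. With 1 library per group this difference was not tested. The shRNA7 count of 0 arises where a 16316 bp peak reaches the start of the longest transcript, and that peak has its summit at -103 bp from the MANE Select start. With the MANE Select start the counts were 0, 3 and 0, and the values no longer stood on opposite sides of the control. The covered share of the transcript, 69.1% upon shRNA5 and 39.2% upon shRNA7, was above the 5.34% of the control in both.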

How the results depend on the processing

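No paired analysis was possible because the result comes from no test, with 1 library in every group. Of 262 recomputed values of 29 results, 217 stayed close to the reported value and 45 moved further. Close meant within 1.5 times a reported count or share, or within the counting interval of a reported median log2 ratio. Some differences between lists turned. With lists of equal length, peaks on the 10 genes were 12 with the control and 11 for each knockdown hairpin, genes with a peak at the start were 3 with the control and 2 upon shRNA7, and without and with doxycycline there were 70 and 77 peaks, 53 and 64 gene-body peaks and covered shares of 22.6% and 25.0%. By summits, genes with a peak past the end were 5 with the control and 3 for each knockdown hairpin, and without peaks at other promoters they were 5 with the control and 4 upon shRNA7. The cause of a move was not tested, beyond fewer or merged peaks where that is the alternative itself.

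A significance score of at least 100 left 7, 21, 36 and 35 peaks on the 10 genes in the control, shRNA5, no doxycycline and doxycycline lists, and 2, 12, 14, 23 and 23 gene-body peaks in the 5 lists; 3 control genes had a peak past the end, and 15.7% and 16.5% of the transcripts were covered without and with doxycycline, an order that also turned. A fold enrichment of at least 10 left 12, 17 and 38 peaks and 4, 6 and 25 gene-body peaks upon shRNA5, upon shRNA7 and with doxycycline (64 gene-body peaks without it), covered shares of 15.0%, 28.6% and 15.7%, and 3 genes with a peak past the end with doxycycline. Merging peaks under 1 kb apart gave 39 and 36 peaks without and with doxycycline, and 15, 27 and 26 gene-body peaks upon shRNA5, without and with doxycycline. Lists of equal length gave 11 and 11 peaks, 4 and 2 genes with a peak at the start, 5 and 7 gene-body peaks and covered shares of 11.3% and 18.8% upon shRNA5 and shRNA7. Counting only summits gave 2 gene-body peaks with the control and 3 genes with a peak past the end upon each knockdown hairpin.

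The median log2 ratio of start-peak tags was 0.28 and 0.23 upon shRNA5 and shRNA7 per kb of peak, and 0.57 and 0.80 after subtraction of the median of all genes. Upon shRNA7 it was 2.81 with the MANE Select start and also 2.81 without peaks at other promoters. Tag counts were not scaled to library totals, which the lists do not hold, and this limits every comparison of levels between lists.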
